A study of Homo sapiens
Mus musculus and Homo sapiens with 2 samples.

Results

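The ZNF genes described here are human genes named ZNF and a number, most of them encoding zinc finger proteins of the C2H2 type. Members were the protein-coding genes with such a symbol in the A549 gene annotation, ranked by whole counts summed over all A549 cells, of which the first 200 were kept. They were 200 of 476 ZNF genes and of 19128 protein-coding genes. Whole counts chose the members, so their level in A549 is a description. Members held 64719 counts (ZNF638) down to 1522 counts (ZNF552). Just inside the limit stood ZNF711 with 1544 counts, ZNF175 with 1540, ZNF140 with 1533 and ZNF487 with 1528, and just outside it ZNF417 with 1518, ZNF169 with 1488, ZNF74 with 1464, ZNF488 with 1460 and ZNF273 with 1437. The new shares of these genes, defined below, ran from 43.5% to 77.6% inside the limit and from 37.4% to 69.2% outside it.

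A C2H2 finger is a short loop of protein held by 1 zinc ion between a pair of cysteines and a pair of histidines, and arrays of such fingers read DNA. Many ZNF proteins also carry a KRAB domain, which binds the corepressor TRIM28 and through it the histone methyltransferase SETDB1, so that the bound DNA, often a retrotransposon, is silenced. Others carry a SCAN domain, which pairs proteins with each other. Large clusters of KRAB zinc finger genes lie on chromosome 19. The mRNAs of transcription factors, zinc finger proteins among them, are known from other human cell lines as short-lived compared with those of metabolic enzymes and structural proteins.

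The RNA was measured by sci-fate, which sequences the RNA of single cells and separates molecules made during a window of 4-thiouridine (S4U) uptake, through base changes that iodoacetamide treatment of the S4U leaves in the cDNA. A549, a human lung adenocarcinoma line, received dexamethasone, a synthetic glucocorticoid, for 2, 4, 6, 8 or 10 h, or the ethanol vehicle alone (0 h), and 200 µM S4U during the last 2 h in every culture. The dexamethasone dose is 101 nM in one label and 100 nM in the protocol. HEK293T, a human embryonic kidney line, was grown with 200 µM S4U for 6 h and sequenced in a mixture with NIH/3T3, a mouse fibroblast line, and comparison groups of it lacked S4U, iodoacetamide or both. The label of the mixture lists dexamethasone too, but the protocol assigns it to A549 alone.

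There was 1 culture for each A549 time and each HEK293T group, and cells of a culture were never counted as replicates. The 7404 A549 cells held a median of 27080.5 whole counts each, and the cultures held 28870594 to 43084614 whole and 5865326 to 9718958 new counts. The 913 labelled HEK293T cells held a median of 6720 counts. No full cell name occurred in both samples. Of the index sequences that end the cell names, 363 occurred in both, of 378 in A549 and 370 in the mixture. The 12 A549 markers examined summed to 42.97 CPM (counts scaled to a common library total) in labelled HEK293T, against 28940 CPM in A549. The 10 HEK293T markers summed to 723.4 CPM in labelled HEK293T, against 173.2 CPM in A549. Of these, HMGA2 was near equal with 137.8 CPM in HEK293T and 120.2 CPM in A549. CRABP1 went the other way, with 0 CPM in HEK293T and 0.41 CPM in A549. In A549 7 fibroblast markers summed to 12.97 CPM and 5 blood markers to 1.36 CPM, and in labelled HEK293T to 5.54 and 2.25 CPM. The median A549 cell held counts of 79 members (quartiles 64 and 94), and of 41 members (36 and 45) when cells were thinned to 10000 counts, which left out 173 shallower cells. ZNF207 was found in 98.5% of A549 cells and ZNF711, at the other end, in 16.1%.

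Most counts of ZNF genes in A549 were called new, that is, made within the labelling window. The new share of a gene is its new counts over its whole counts, and in A549 the median over the 200 members was 60.3%, with quartiles of 47.3% and 68.2%. Over the 9208 other protein-coding genes in the same range of whole counts the median was 25.9%. Of the 200 members, 183 lay above that median, 107 lay above the 90th percentile of those genes (59.1%), and 141 (70.5%) had more new than pre-existing counts, against 1641 (17.8%) of the 9208. Members made up 0.586% of all whole counts in A549, 1.44% of the new counts and 0.356% of the pre-existing counts, which are whole minus new counts. In sum their counts were 52.2% new (exact 95% interval 52.1 to 52.3), against 21.2% for the counts of all genes. Intervals here and below cover counting error only.

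**Figure D1:**
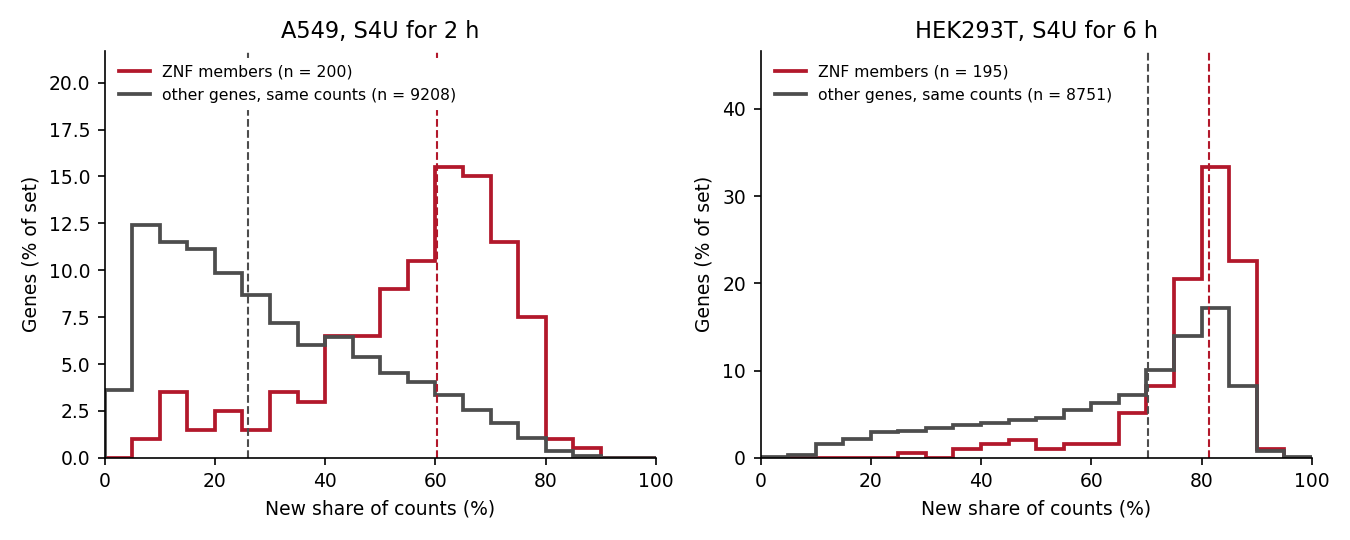
New share of counts (x axis, %) of ZNF members (red) and of other protein-coding genes in the same range of A549 whole counts (grey), as the percent of each set in steps of 5 percentage points (y axis), in A549 and in labelled HEK293T. Dashed lines mark the medians, 60.3% for members and 25.9% for other genes in A549, and 81.3% and 70.2% in HEK293T.

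The same held at every dexamethasone time. In order of time from 0 h to 10 h, the median share of members was 59.3%, 58.3%, 59.1%, 60.9%, 60.4% and 60.6%. The other genes had medians of 25.4%, 24.5%, 25.1%, 27.4%, 26.2% and 25.4% at these times, so the gap stayed between 33.4 and 35.2 percentage points. The low point at 2 h and the high point at 6 h were shared by both sets. A single member's share differed by a median of 5.72 percentage points between its lowest and highest culture, least in ZNF185 (2.22 points) and most in ZNF827 (15.2 points).

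The background of the method was close in members and in other genes. In HEK293T cells with iodoacetamide but no S4U, 1.23% (1.16 to 1.3) of the members' counts were called new, against 1.24% of all human counts. With S4U but no iodoacetamide the values were 1.02% for members and 1.02% for all human counts, and with neither they were 0.824% and 0.888%. Members also made up like parts of the new and the whole counts without S4U, 0.926% and 0.937% in cells with iodoacetamide only, whereas in labelled HEK293T they made up 1.47% of the new and 1.01% of the whole counts. The 425 labelled NIH/3T3 cells, which are mouse and held a median of 6731 counts each, had 44 counts on members in all.

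The most abundant members spanned much of the range of shares. ZNF638 (ENSG00000075292.14), a nuclear protein linked to the silencing of retroviral DNA, had a share of 39.4% (39.0 to 39.8). ZNF146, which consists of little but fingers, had 58.1%, and ZNF207, also called BuGZ, a spindle and kinetochore protein, had 28.5%. ZNF281, whose mouse counterpart regulates pluripotency genes, had 70.0% (69.5 to 70.4). ZNF609 had 59.1%, ZNF644, a partner of the histone methyltransferases EHMT1 and EHMT2, had 66.3%, and ZNF148, also known as ZBP-89, had 61.9%. Lower among these abundant genes were ZNF770 with 44.4%, ZNF106, whose mouse counterpart binds RNA, with 20.9% and ZNF664 with 17.7%.

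At the top of the range stood ZNF92 (ENSG00000146757.9), a KRAB gene on chromosome 7, with a new share of 86.2% (85.2 to 87.1). From 0 h to 10 h its share was 85.1%, 86.3%, 83.2%, 87.1%, 88.5% and 86.2%. It was thus above 80% in every culture. ZNF367 followed with 83.3%, then the KRAB genes ZNF267 with 80.1% and ZNF845 with 79.4%, and ZNF217, a breast cancer oncogene whose protein sits in corepressor complexes, with 79.3%. The next were ZNF675, which encodes a KRAB protein known to bind TRAF6, with 78.9%, ZNF503, whose mouse counterpart is a repressor in development, with 77.9%, and ZNF567, ZNF175 and ZNF200 with 77.7%, 77.6% and 77.5%. Of these 10, 4 lie on chromosome 19 and 6 hold a KRAB domain.

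At the bottom stood ZNF358 (ENSG00000198816.5) with a new share of 6.996% (5.93 to 8.19). Its share was 7.81%, 9.04%, 6.55%, 6.04%, 6.00% and 6.38% over the 6 times from 0 h to 10 h, below 10% in every culture. ZNF511 had 9.0%, ZNF185, whose protein is a LIM domain protein of the actin cytoskeleton, 10.2%, and ZNF219, a partner of SOX9 in mouse, 10.3%. ZNF259, now named ZPR1, whose protein binds translation factors and the SMN protein, had 10.7%, and ZNF593, a factor of ribosome assembly in its yeast relative, had 11.96%. ZNF524, ZNF580, ZNF428 and ZNF213 had 14.03%, 14.4%, 14.7% and 16.8%. Several of these are ZNF genes by name more than by structure. In ZNF185 and ZNF259 no C2H2 finger was found, in ZNF593 and ZNF428 a single one. Over all members, 126 of 199 with a position overlap another annotated gene, and the sources used here do not say how the authors' counting assigned such reads.

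The finger itself is shown for the 3 members with the highest and the 3 with the lowest share among those that hold one in the strict form with the linker TGEKP behind it, in each case the first such finger of the coding sequence. Capitals mark the codons of the 2 cysteines and 2 histidines that hold the zinc, and the last 15 bases encode the linker. Sequences run 5′ to 3′ and come from GENCODE 29 transcripts of the GRCh38 build, with T for U.
ZNF92: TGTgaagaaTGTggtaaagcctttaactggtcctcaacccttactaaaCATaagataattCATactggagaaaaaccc
ZNF267: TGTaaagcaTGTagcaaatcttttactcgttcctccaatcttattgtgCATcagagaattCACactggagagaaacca
ZNF845: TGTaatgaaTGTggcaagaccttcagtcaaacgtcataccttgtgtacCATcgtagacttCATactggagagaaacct
ZNF213: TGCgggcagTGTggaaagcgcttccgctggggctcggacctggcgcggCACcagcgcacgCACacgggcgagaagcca
ZNF664: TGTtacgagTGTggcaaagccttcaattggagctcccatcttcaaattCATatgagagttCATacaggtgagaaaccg
ZNF32: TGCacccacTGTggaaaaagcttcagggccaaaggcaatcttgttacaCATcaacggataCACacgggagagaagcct
Each stretch has 78 bases, and the zinc-holding codons stand at the same places in all 6. The letters between them differ, and with them the T, the base that S4U replaces as U. T made up 20 of the 78 bases in ZNF92, 23 in ZNF267 and 21 in ZNF845, against 8 in ZNF213, 21 in ZNF664 and 13 in ZNF32. Over the whole transcript T made up 28.2%, 28.7% and 28.4% in the first 3, and 17.02%, 26.1% and 21.1% in the last 3. ZNF664, with a share of 17.7%, thus had a T content like that of the high genes.

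Shares differed with features of the protein that the choice of members did not use. In 198 members matched to GENCODE 29, the translated coding sequence held a KRAB A box in 95, a SCAN domain without KRAB in 11 and neither in 92. The median share in A549 was 65.1% for KRAB members, 54.7% for SCAN members and 53.2% for the rest. The KRAB members stayed above the others at every time, with medians from 63.5% to 66.2%, while the members with neither domain had medians from 51.4% to 55.8%. KRAB members on chromosome 19 (51 genes) had a median of 68.1% and KRAB members elsewhere (44 genes) 63.3%. Outside the ZNF members, 21 genes in the same range of counts with a KRAB A box had a median of 57.1%.

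Fingers were counted with the pattern of 2 cysteines and 2 final histidines (or 1 histidine and 1 cysteine), and 189 of 198 members held at least 1. The median share was 39.4% in 23 members with 0 to 2 fingers, 54.9% in 37 with 3 to 6, 61.7% in 66 with 7 to 11 and 63.7% in 72 with 12 or more. Across the 198 members the number of fingers and the share had a Spearman correlation of 0.35, and within the 95 KRAB members one of 0.12. These members share libraries and depth, and the correlations are descriptions. The spread within each bin was wide, from 10.2% to 83.3% in members with 0 to 2 fingers.

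**Figure D2:**
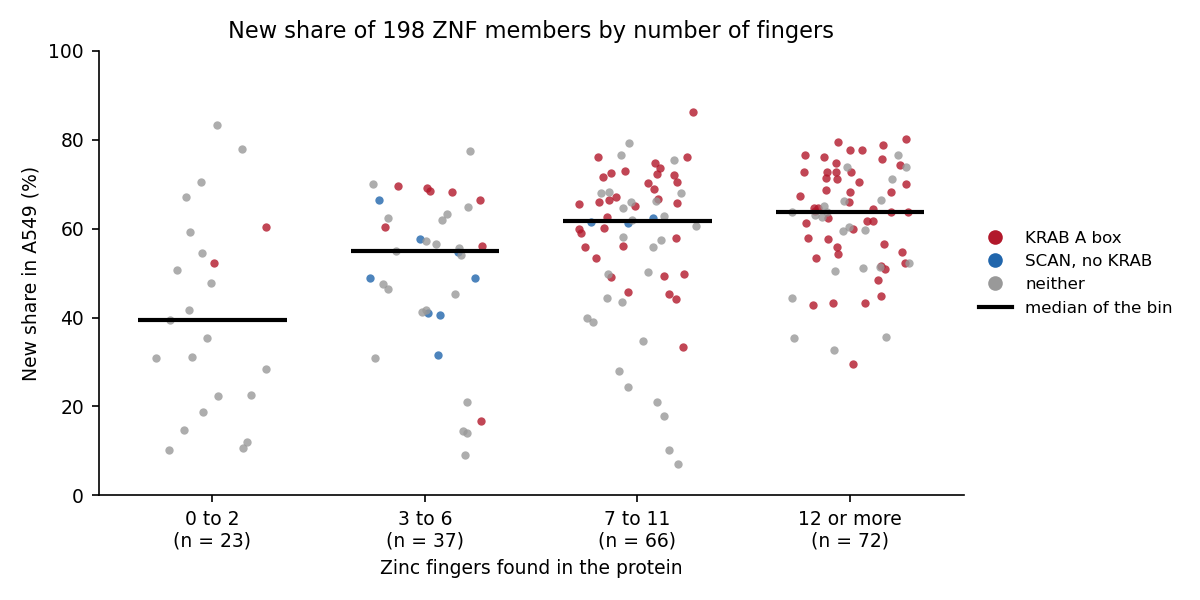
New share in A549 (y axis, %) of 198 ZNF members by the number of C2H2 fingers found in the protein (x axis). Each point is 1 gene, red with a KRAB A box, blue with a SCAN domain only and grey with neither, and bars are medians, which run from 39.4% with 0 to 2 fingers to 63.7% with 12 or more.

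Other families of zinc finger genes in the same range of counts had medians close to that of the members. The median was 60.4% for 7 ZSCAN genes, 67.0% for 4 ZKSCAN genes, 56.4% for 24 ZBTB genes and 62.2% for 12 ZFP genes. The 251 ZNF genes below the first 200 that had at least 20 counts had a median of 55.2%.

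The members spanned less of the genome than other genes and held about as much U. The median span was 28 kb for members, against 38.9 kb for the other genes, and the transcript held 25.4% U in members, against 25.3% in other genes. A 3′ untranslated region with at least 1 AUUUA, a letter run found in many unstable mRNAs, occurred in 150 of 198 members (75.8%), against 6524 of 9067 other genes (72.0%). Members without AUUUA had a median share of 50.3% and those with at least 5 had 64.6%. The other genes differed in the same direction, with 15.2% without AUUUA and 34.6% with at least 5. In other genes the span went along with the share, with a Spearman correlation of 0.48 over 9067 genes, and in members much less, with 0.12 over 198. In the bin of the shortest spans (1.00 to 15.7 kb) the median share was 50.0% for 50 members, against 13.3% for 2178 other genes, and in that of the longest (48.5 to 468 kb) it was 59.6%, against 36.2%. By U content the medians were 50.6% for members, against 15.6% for other genes, in the lowest of 4 bins, and 65.9%, against 31.6%, in the highest. Introns made up 44.4% of new counts and 14.2% of whole counts over all A549 cells, and 41.8% and 27.96% in labelled HEK293T. The deposited files give introns per cell and not per gene, so their part in the members' shares was not tested.

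**Figure D3:**
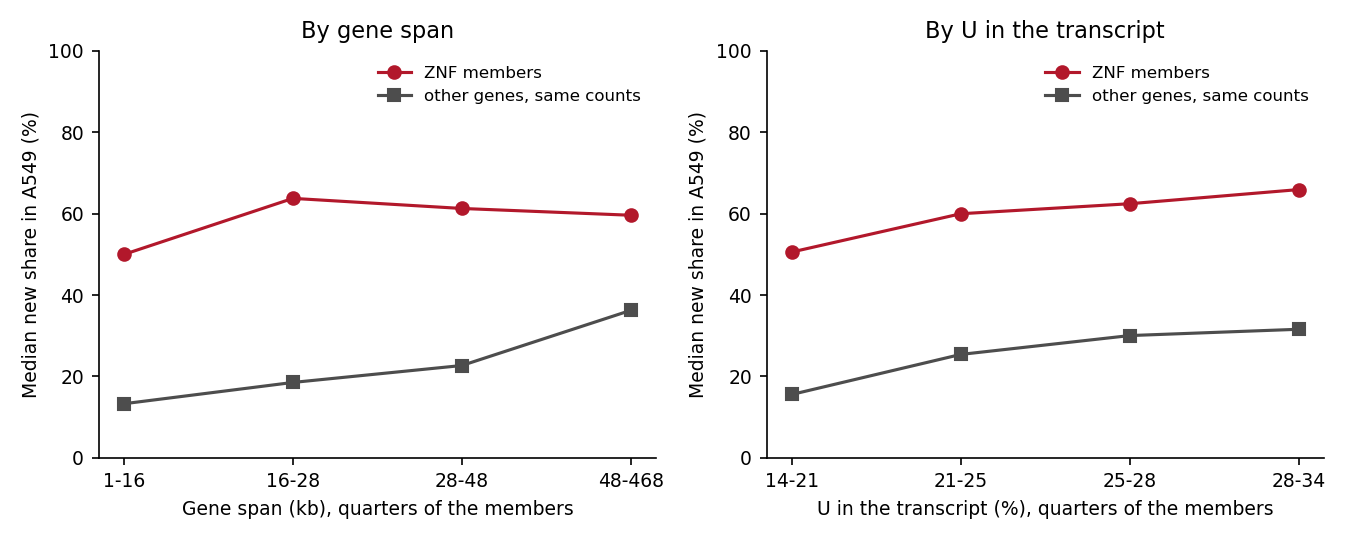
Median new share in A549 (y axis, %) of ZNF members (red circles) and of other genes in the same range of counts (grey squares) by gene span in kb (left) and by the percent of U in the transcript (right), in 4 bins of about equal numbers of members. Members lie above the other genes in all 8 bins, by 50.0% against 13.3% in the shortest spans and 59.6% against 36.2% in the longest.

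The ends of the range differed in these features. The 20 members with the highest shares (74.7% to 86.2%) held 13 KRAB genes, a median of 12 fingers and 27.4% U, and 1 of them lacked AUUUA. The 20 with the lowest shares (6.996% to 29.6%) held 2 KRAB genes, a median of 3 fingers and 19.3% U, and 11 of them lacked AUUUA. Their median whole counts were 4018 and 4789.

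In labelled HEK293T, 195 members had at least 20 counts, and their median new share was 81.3%, against 70.2% for 8751 other genes. S4U was present for 6 h there and for 2 h in A549, so the shares of both lines are set side by side without a test. The share was higher in HEK293T in 194 of the 195, and the 95% intervals were apart in 171. This count was not made over the other genes, whose median share was also higher in HEK293T, 70.2% against 25.9%. Over all human counts the new share was 54.7% in labelled HEK293T and 21.2% in A549. The exception among the 195 members was ZNF565, with 28.3% (20.7 to 37.0) in HEK293T and 29.6% (28.1 to 31.2) in A549. ZNF565 overlaps ZNF146, which had 85.3% in HEK293T and 58.1% in A549. Among members with fewer than 20 counts in HEK293T, ZNF141 had 7.14% of 14 counts new there, against 70.3% in A549. ZNF114 (36.8% of 19 counts, against 60.4%) and ZNF544 (44.4% of 9 counts, against 44.8%) were also lower in HEK293T, and ZNF524 and ZNF43 were higher.

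Among members with at least 100 counts in HEK293T, the highest shares there were those of ZNF614 (91.6%), ZNF260 (89.9%), ZNF283 (89.7%), ZNF711 (89.6%), whose gene is mutated in X-linked intellectual disability, and ZNF22 (89.0%). The lowest were those of ZNF565, ZNF580 (35.9%), ZNF358 (36.2%), ZNF428 (41.0%) and ZNF664 (46.2%), of which ZNF580, ZNF358 and ZNF428 were also among the 10 lowest in A549. The order of the 162 members was related in the lines, with a Spearman correlation of 0.51 and a Pearson correlation of 0.69. For 7648 other genes with as many counts the Spearman correlation was 0.84 and the Pearson correlation 0.77. The members' shares in HEK293T spanned less, with quartiles of 75.8% and 84.9%, against 48.7% and 80.4% in other genes (at least 20 counts). The largest differences in rank were those of ZNF711 (4th of 162 in HEK293T and 130th in A549), ZNF22 (5th and 125th), ZNF770 (11th and 128th), ZNF460 (21st and 120th) and ZNF720 (14th and 113th). All 5 stood higher in the order in HEK293T. ZNF711 had 89.6% (86.6 to 92.2) of 482 counts in HEK293T and 43.5% (41.0 to 45.97) of 1544 counts in A549.

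**Figure D4:**
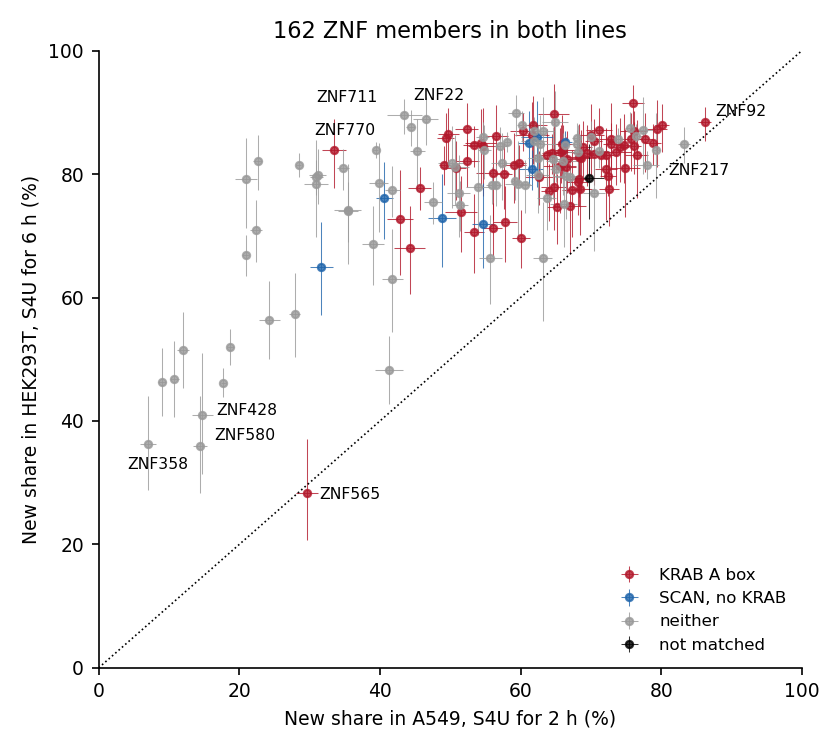
New share of 162 ZNF members in A549 (x axis, %, S4U for 2 h) and in labelled HEK293T (y axis, %, S4U for 6 h), with exact 95% intervals for counting error, coloured by domain (red KRAB, blue SCAN only, grey neither, black not matched). The dotted line marks equal shares, and ZNF565 at 28.3% in HEK293T and 29.6% in A549 lies on it.

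ZNF genes were also a larger part of the RNA in HEK293T, 1.01% of whole counts, against 0.586% in A549, although the members had been chosen by their counts in A549. The level in HEK293T was above that in A549 in 162 of 200 members (81.0%), by a median ratio of 1.64, and in 84 of 95 KRAB members (88.4%). Over the 9208 other genes the ratio was above 1 in 58.5%, with a median of 1.15. At least 4-fold higher in HEK293T were 18 members, led by ZNF503 with 176.4 CPM in HEK293T and 9.29 CPM in A549 (ratio 18.98, interval 17.6 to 20.4), its close relative ZNF703 with 131.3 and 8.09 CPM, and ZNF711 with 72.2 and 7.13 CPM. At least 4-fold lower were 7, among them ZNF217 with 18.6 CPM in HEK293T and 89.6 CPM in A549 (ratio 0.207, interval 0.172 to 0.247). Lower too were ZNF544 with 1.35 and 21.3 CPM, and ZNF43 with 1.35 and 12.5 CPM, each on 9 counts in HEK293T. Of the 9208 other genes, 305 were at least 4-fold higher in HEK293T and 811 at least 4-fold lower. The genes named as higher had the largest ratios, and ZNF544 and ZNF43 the smallest. ZNF141, ZNF524 and ZNF331 had smaller ratios than ZNF217 (0.128, 0.150 and 0.169). These ratios rest on 1 sample a line and no test.

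Few ZNF genes passed the test for a change with dexamethasone. In simulated counts the test recovered 23% of 1.5-fold changes in new and 21% in whole RNA. The spread of these counts was preset and not estimated from the cultures, so recovery in the real data may differ. A missing call thus does not show a lack of change. Treated cultures were set against the 0 h culture with edgeR's quasi-likelihood test, fitted on all genes with Benjamini-Hochberg adjustment and a threshold of 0.05. With 1 culture a time, the model takes the spread of the 5 treated cultures as that of the 0 h culture too. As a check, the glucocorticoid target genes TSC22D3, FKBP5 and PER1 rose in new RNA, by 4.84 (SE 0.28), 3.93 (SE 0.20) and 3.39 (SE 0.18) on the log2 scale. In new RNA 2 of 200 members rose and 1 fell, and 3.82% and 2.18% of all 17507 genes tested did so, larger shares than those of the members. Without the 2 h culture 2 members fell, ZNF462 among them, when 4.86% of all genes fell. The median log2 fold change was -0.03 over members and 0.01 over all genes. At an unadjusted p under 0.05 there were 7 members up and 10 down, against 10.1% of all genes up and 7.99% down.

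ZNF281 rose in new RNA. From 2 h to 10 h its level was 617, 646, 640, 610 and 569 CPM, against 399 CPM at 0 h. All 5 treated cultures stood above the 0 h culture, and the log2 fold change was 0.63 (SE 0.10, adjusted p = 0.00569, edgeR). In whole RNA it stood at 170, 188, 202, 190 and 173 CPM in the treated cultures, against 125 CPM at 0 h, with a log2 fold change of 0.57 (SE 0.10) that missed the threshold (adjusted p = 0.0571).

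ZNF579 (ENSG00000218891.2), a gene of chromosome 19 without a KRAB box, also rose. New RNA stood at 63.0, 85.7, 73.5, 71.0 and 70.3 CPM from 2 h to 10 h, against 36.7 CPM at 0 h, a log2 fold change of 0.98 (SE 0.16, adjusted p = 0.00751, edgeR). The treated cultures did not overlap the 0 h culture, and the highest was that at 4 h. In whole RNA the levels were 23.7, 35.1, 34.8, 30.7 and 28.8 CPM, against 15.9 CPM at 0 h, and the log2 fold change of 0.94 (SE 0.21) missed the threshold (adjusted p = 0.109).

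ZNF462, a protein with 34 matched fingers whose gene is mutated in a neurodevelopmental syndrome, fell. New RNA stood at 50.7, 47.4, 49.7, 44.6 and 46.7 CPM from 2 h to 10 h, against 72.7 CPM at 0 h, a log2 fold change of -0.60 (SE 0.11, adjusted p = 0.0103, edgeR). Every treated culture was below the 0 h culture already from 2 h. Whole RNA was also below the 0 h culture in every treated one, with 23.1, 19.8, 19.5, 17.9 and 17.2 CPM, against 28.8 CPM at 0 h, and did not pass (log2 fold change -0.56, SE 0.15, adjusted p = 0.164). ZNF281 and ZNF462 overlap other annotated genes, and ZNF579 does not.

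**Figure D5:**
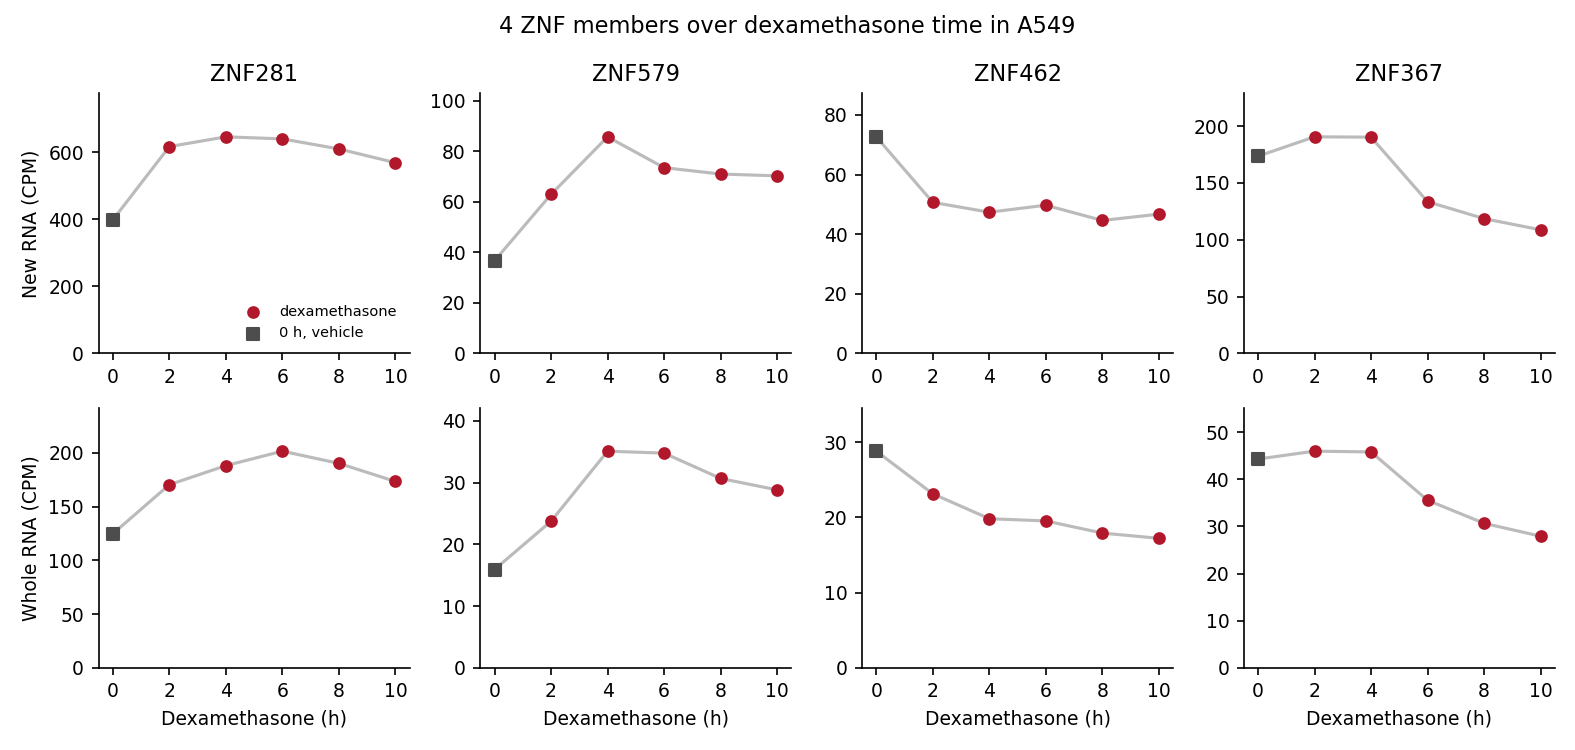
New RNA (top) and whole RNA (bottom) of ZNF281, ZNF579, ZNF462 and ZNF367 in CPM (y axis, TMM-scaled, from 0) by hours of dexamethasone (x axis), 1 culture a point, red with dexamethasone and grey for the 0 h vehicle culture. New RNA of ZNF281 is at 569 to 646 CPM in treated cultures and 399 CPM at 0 h, and ZNF462 at 44.6 to 50.7 CPM and 72.7 CPM.

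In whole RNA no member passed the same test, with 0.603% of 22894 genes called up and 0.275% called down. At an unadjusted p under 0.05 edgeR gave 6 members up and 12 down, against 7.09% of all genes up and 5.67% down. DESeq2 called 2 members up and 1 down after adjustment, which were ZNF281, ZNF579 and ZNF462, against 2.78% of all genes up and 1.12% down. Without the 2 h culture edgeR called 3 members up and 1 down, these genes included, against 4.09% of all genes up and 2.94% down. A shift of new against pre-existing RNA, which is a shift of the new share, was called in 0 of 200 members and in 0% of all 22440 genes by edgeR, with 1 member up and 0 down at an unadjusted p under 0.05, against 3.36% and 2.05% of all genes. ZNF22 came nearest. Its share was 45.2%, 46.2%, 50.5%, 47.8% and 48.7% from 2 h to 10 h, against 40.1% at 0 h (log2 difference 0.49, SE 0.17, adjusted p = 0.841). ZNF133 and ZNF180 were next with 0.38 (SE 0.18) and 0.32 (SE 0.16) at adjusted p values of 0.920 in both.

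Over the treated times, from 2 h to 10 h, a few members drifted. In new RNA 0 members had a rising and 3 a falling slope, when 3.55% and 4.15% of 16366 genes did. In whole RNA 1 rose and 7 fell, when 6.1% and 6.53% of 21493 genes did. The steepest was ZNF367, whose new RNA stood at 191, 190, 133, 119 and 109 CPM from 2 h to 10 h, a slope of -0.12 log2 units per hour (SE 0.02, adjusted p = 0.00113, edgeR). Its level at 0 h, 173 CPM, was below those at 2 h and 4 h and above those from 6 h on. Whole RNA of ZNF367 fell too, by 0.10 log2 units per hour (SE 0.01, adjusted p = 0.00095, edgeR), while its share stayed between 81.6% and 84.8%.

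The other falling genes had smaller slopes. In new RNA they were ZNF710 (-0.07 log2 units per hour) and the KRAB gene ZNF189 (-0.05, adjusted p = 0.0496 by edgeR). In whole RNA they were the KRAB gene ZNF43 (-0.06), ZNF710 (-0.05), ZNF462 (-0.05), ZNF704 (-0.05), ZNF326 (-0.04), whose protein links transcript elongation and splicing, and ZNF618 (-0.03), and the riser was the KRAB gene ZNF791 (0.04). ZNF189 and ZNF710 stood higher at 2 h than at any later time in new RNA, with 68.5 and 64.9 CPM. At 0 h ZNF189 stood at 40.3 CPM, below every treated culture. ZNF710 stood at 43.6 CPM at 0 h, close to its lowest treated culture with 43.9 CPM at 10 h. In whole RNA ZNF710 had 14.96 CPM at 0 h and less, 14.3 CPM, at 10 h. Many of these calls depended on single cultures. In new RNA ZNF189 lost its call when any 1 of the 5 cultures was left out. Only ZNF367 remained without the 8 h or the 10 h culture, when 1.73% and 1.91% of all genes fell. In whole RNA 3 members fell without the 2 h culture, 4 without the 4 h, 2 without the 8 h and 4 without the 10 h culture, when 3.77%, 4.71%, 3.26% and 3.78% of all genes fell. Of the 7 named ZNF367 was the only one called in all of them. ZNF791 likewise lost its call without any 1 of the 5 cultures.

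The genes of the machinery through which KRAB proteins act had far lower new shares. The list of KRAB cofactors held 23 genes, and their median new share was 16.4% in A549. It ran from 5.70% for the remodeller CHD3 to 53.0% for the DNA methyltransferase DNMT3B, with 0 of 23 above the median of the members. That median, 60.3%, lies above even the 90th percentile of the other genes in the members' range of counts (59.1%). The median of those genes was 25.9%. Of the cofactors, TRIM28 and CBX3 lie above that range of counts. TRIM28, the corepressor that KRAB binds, had 7.42% of 110520 counts, and the heterochromatin protein genes CBX5, CBX3 and CBX1 had 8.74%, 12.9% and 17.2%. SETDB1, the methyltransferase recruited by TRIM28, and its partner ATF7IP were higher with 48.4% and 52.9%. In new RNA EHMT1 rose with dexamethasone (log2 fold change 0.52, SE 0.10, adjusted p = 0.0121, edgeR). CHD3 fell (-0.58, SE 0.13, adjusted p = 0.0302, edgeR). Of all genes 3.82% rose and 2.18% fell. At an unadjusted p under 0.05 by edgeR 2 of 23 were up and 6 down (8.70% and 26.1%), against 10.1% and 7.99% of all genes. In whole RNA 0 of 23 passed, when 0.603% of all genes rose and 0.275% fell. There 1 was up and 4 down at an unadjusted p under 0.05 by edgeR (4.35% and 17.4%), against 7.09% and 5.67% of all genes. In whole RNA 12 of 23 had a falling slope over the treated times and 0 a rising one, DNMT1 with -0.06 and UHRF1, which guides DNMT1 to replicated DNA, with -0.09 log2 units per hour, when 6.53% of all genes fell and 6.1% rose. In new RNA 3 of 23 had a falling slope (DNMT1, UHRF1 and CBX5) and 1 a rising one (CHD4), when 4.15% and 3.55% of all genes did. The fall in whole RNA was called in 4 of 23 without the 2 h, the 8 h or the 10 h culture, when 3.77%, 3.26% and 3.78% of all genes fell.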

How the data were processed

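The labels name, from the submitters' processing notes, STAR 2.5.2b, Picard 1.105, SAMtools 1.3 and Trim Galore 0.4.1 and the builds hg19 and mm10. The sources used here give neither their settings nor the way new molecules were recognised. The authors deposited raw counts per gene for every cell, whole and new, and new counts never exceeded whole counts. Groups came from the authors' deposited cell annotation. The authors' deposited doublet score and fraction of changed reads were not used, and no cell was left out.

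Counts were summed over the cells of each culture. Shares carry exact Clopper-Pearson 95% intervals. Dexamethasone was tested with edgeR 4.0.16 in R 4.3.3 (quasi-likelihood, TMM, filterByExpr with a minimum count of 10, Benjamini-Hochberg over all genes, threshold 0.05). The test of treated against 0 h cultures and that of new against pre-existing RNA had 4 residual degrees of freedom and the slope test 3, so p-values measure the spread between these single cultures, which includes change over time. Standard errors came from the fold and its F statistic. DESeq2 1.42.0 was an alternative. The scripts were tested on simulated data with a preset spread. Of 2-fold changes with treatment, 79% were recovered in new and 86% in whole RNA. Of slopes of 0.1 log2 units per hour, 21% were recovered in new and 40% in whole RNA. Of 2-fold shifts of new against pre-existing RNA, 90.5% were recovered. The preset spread was not estimated from these cultures, so these values do not give the recovery in the real data.

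Domains and fingers were found in translated GENCODE 29 coding sequences (GRCh38), matched by gene identifier in 198 of 200 members: a KRAB A box by at least 9 of 15 scored letters, a SCAN domain by at least 14 of 18. No protein tables were used, and because the builds differ no positions are printed. Close copies, over 80% identical in protein, occurred for 12 members, whose counts are uncertain. Named were the 10 most abundant members, the 10 highest and 10 lowest shares in A549, the 5 highest and lowest in HEK293T (at least 100 counts), the 5 largest rank differences, up to 8 called members a direction of each test (or the 3 smallest p), and 5 genes on each side of the limit. The members, lists and tests were chosen with earlier results of these data known.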

Additional observations from a re-analysis of the deposited data

Results flagged for a closer look

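Among the 5 treated A549 cultures, 47 sets of values were examined for a single culture apart from the rest, the members' summary values and the levels and shares of the members named in the dexamethasone tests. New RNA of ZNF180, a KRAB gene, was highest in the 2 h culture with 76.9 CPM, against 66.6 to 69.5 CPM in the other 4 treated cultures, and 69.1 CPM at 0 h. It was the only one of the 47, and chance gives about 1 in 20.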

How the results depend on the processing

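New RNA of ZNF281, ZNF579 and ZNF462 kept its direction and its call in all 8 alternatives each, with adjusted p up to 0.0255, 0.0287 and 0.0301. ZNF367 kept its falling slope in new and whole RNA in all 8. With each treated culture left out in turn, 2 to 3 members rose and 1 to 2 fell in new RNA. Over all genes 2.47% to 6.75% rose and 1.16% to 4.86% fell. In whole RNA 0 to 3 members rose and 0 to 1 fell, when 0.251% to 4.09% and 0.079% to 2.94% of all genes did. For slopes, 1 to 3 members fell in new RNA, when 1.73% to 3.9% of all genes fell. In whole RNA 0 to 1 rose and 2 to 7 fell, when 3.31% to 6.01% and 3.26% to 6.19% of all genes did. Among the 23 KRAB cofactors 0 to 1 had a rising and 4 to 12 a falling slope in whole RNA, beside these same shares of all genes. In whole RNA treated against 0 h, DESeq2 called 2 up and 1 down, when 2.78% and 1.12% of all genes were called. The fit with no low-count filter called 2 up, ZNF281 and ZNF579, when 0.7% of all genes were called up. For the rising slope, no low-count filter gave 1 member in new and 2 in whole RNA, when 2.3% and 3.6% of all genes rose. With log2 of hours there were 1 and 2 members, when 4.56% and 6.86% of all genes rose. The cause was not tested. Median shares in A549 were 58.6% for the top 100 genes and 62.4% without members that overlap another gene, and 59.3% to 60.4% in the other 4 alternatives, with an SD of 1.02 over the 6 cultures. In HEK293T the median was 81.8% at 100 counts or more and 79.99% less the share without S4U. With counts of protein-coding genes as the denominator, members made up 0.607% of whole, 1.52% of new and 0.367% of pre-existing counts in A549, and 1.06%, 1.55% and 0.479% in HEK293T. The overlap, cofactor and leave-one-out slope alternatives were chosen after seeing the data. No paired analysis was possible because there is 1 culture a time and no replicate number pairs them.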
